A study of Mus musculus with 4 samples.

Results

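Of 91019 regions that held a peak of histone 3 phosphorylated at serine 10 (H3S10ph) in mouse gastrocnemius muscle, 309 held a peak in both samples of unstimulated muscle and are described here as reproducible regions of resting muscle. They were chosen by the peaks themselves: the peaks of the 4 samples were merged where they overlapped by 1 bp or more, and a merged region was kept when both unstimulated lists had a peak in it. They were then divided by the stimulated samples: 166 had no peak in either stimulated list, 69 had one in 1 stimulated list and 74 in both. The samples came from male C57BL/6 mice, 5 months old. Stimulated muscles had performed 50 eccentric contractions and were frozen immediately afterwards, and unstimulated muscles were the contralateral ones of the other leg. Each of the 4 ChIP-seq samples, 2 per condition, was a pool of muscles from 6 mice, so that differences between single animals cannot be seen. All animals were anaesthetised, and no group was without anaesthesia.

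H3S10ph is deposited by kinases on different occasions. In dividing cells it accompanies the condensation of chromosomes, and in resting cells it appears within minutes at genes that respond to stress or growth signals. Muscle fibres do not divide, and the mark is best known there from genes switched on by a stimulus. What it covers in a muscle at rest is the question that the regions below address. Some of them lie in duplicated DNA, where several nearly identical copies of a sequence stand side by side, and reads from such copies are hard to place on a genome.

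The lists were of unequal length, with 9094 and 32740 peaks in the unstimulated samples (unstimulated 1 and 2) and 10901 and 40683 in the stimulated samples (stimulated 1 and 2). A peak carries a fold enrichment, the ratio of the signal to the background that the peak caller estimated, and a −log10 p. The files hold no read counts, so the depth of each sample is unknown and no counting error can be given. Where a list has no peak, the mark may still be present below its threshold. Folds are those of a peak within its own list, and no difference in fold between conditions was tested. Unstimulated 1 stood apart on the X chromosome, with 522 peaks against 16 to 19 in the other lists. The 309 regions took up 13 of these, and no region lay on the Y chromosome. Of 6 muscle marker genes, 2, 4, 5 and 5 held a peak in the lists in the order given above. Of 12 markers of satellite, endothelial and Schwann cells, fibroblasts, macrophages and adipocytes, 0, 3, 1 and 8 did. The share of all genes with a peak is not given here, and the lists differ in length. These counts therefore cannot tell muscle from other cells. Among the 309 regions, 1 muscle marker (Myh4) and 0 markers of other cells had a region.

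The highest region in resting muscle was a piece of nuclear DNA that repeats the mitochondrial genome. It measures 960 bp on chromosome 1 (chr1:24612437-24613396), holds the pseudogenes Gm10222, Gm28437 and Gm28438, and its whole length aligned to the mitochondrial sequence with 99.8% identity. The stretch below is shown with the same stretch of the mitochondrial genome, and capitals mark the 1 base that differs within it.

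Gm10222 region, chr1:24613057-24613216, mm10, plus strand: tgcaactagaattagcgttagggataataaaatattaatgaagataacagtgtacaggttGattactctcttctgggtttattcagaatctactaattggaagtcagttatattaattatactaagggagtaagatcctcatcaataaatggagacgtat
Mitochondrial genome, chrM:9362-9521, mm10, minus strand: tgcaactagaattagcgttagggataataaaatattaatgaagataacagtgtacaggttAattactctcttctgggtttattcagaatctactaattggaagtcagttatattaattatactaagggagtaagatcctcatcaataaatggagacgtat

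Its fold enrichment was 15.5 in unstimulated 1, 9.44 in unstimulated 2, 8.44 in stimulated 1 and 9.61 in stimulated 2, and its ranks by fold were 1, 2, 1 and 3. No other region had such a fold in all 4 samples. The whole region and the mitochondrial stretch differed at 2 positions, 1 of which was a gap.

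The largest group of related sequences lay on chromosome 5. Of the 309 regions, 44 were linked by alignments in a single family, all on that chromosome. Each was linked to another member, but many pairs were joined only through further members. The median of their best identity to a copy anywhere in the genome was 97.6%. The stretches below come from the family's best ranked region with a peak in all 4 lists and from a relative further along the chromosome, and capitals mark the 4 bases of 200 that differ. They are the first 200 bases without a gap. The whole alignment of this pair, over 528 positions, had a lower identity of 94.3%.

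Region near Gm17019, chr5:15040195-15040394, mm10, plus strand: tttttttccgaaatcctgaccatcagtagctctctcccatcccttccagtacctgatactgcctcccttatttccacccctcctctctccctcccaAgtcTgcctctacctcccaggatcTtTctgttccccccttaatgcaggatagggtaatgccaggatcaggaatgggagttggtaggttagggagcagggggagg
Relative further along the chromosome, chr5:17468183-17468382, mm10, minus strand: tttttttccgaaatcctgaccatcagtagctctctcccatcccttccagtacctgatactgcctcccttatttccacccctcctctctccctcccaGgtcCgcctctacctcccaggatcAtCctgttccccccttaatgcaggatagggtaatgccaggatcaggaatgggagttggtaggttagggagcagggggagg

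The region near Gm17019 had a fold of 3.82 in unstimulated 1, 3.04 in unstimulated 2, 3.44 in stimulated 1 and 2.52 in stimulated 2. The family lay along the Speer4 genes, a cluster of spermatogenesis-associated genes of rodents, and neighbouring gene models such as Gm21149 and Gm21190. A second group of copies lay on chromosome 4 among the zinc finger genes Zfp984 and Zfp985. Here the shown stretches of 200 bases differ at 8 positions, given in capitals. The whole alignment of this pair, over 1233 positions, had a lower identity of 91.4%.

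Zfp984 region, chr4:147752977-147753176, mm10, plus strand: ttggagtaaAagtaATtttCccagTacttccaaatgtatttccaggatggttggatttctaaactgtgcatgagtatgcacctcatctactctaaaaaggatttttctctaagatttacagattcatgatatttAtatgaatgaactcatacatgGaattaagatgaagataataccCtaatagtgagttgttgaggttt
Zfp985 region, chr4:147585994-147586193, mm10, minus strand: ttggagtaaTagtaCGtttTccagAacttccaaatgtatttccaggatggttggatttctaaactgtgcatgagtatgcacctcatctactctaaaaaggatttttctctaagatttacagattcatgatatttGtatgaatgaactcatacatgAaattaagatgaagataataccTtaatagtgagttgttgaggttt

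The Zfp984 region had a fold of 2.25 and 2.13 in the unstimulated and 2.05 and 1.97 in the stimulated lists, and the Zfp985 region 2.26 and 1.84 in the unstimulated lists and 1.88 in stimulated 1, with no peak in stimulated 2. Tandem repeats were rare over whole regions. Counted after the data had been seen, 2 of 298 regions (0.671%) had at least 75% of their bases equal to the base at a fixed distance, against 0.397% of all regions and 2.94% of those held by the stimulated pair alone. Repeats below this limit also occurred. A pair of regions on chromosome 7 near Apba2, which encodes an adaptor protein of neurons, held peaks in all 4 lists. In the first of them a unit of 93 bases recurs, and capitals mark its first copy. In this window of 240 bases, 95.9% of the bases equalled the base 93 places further on.

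First region near Apba2, chr7:64469238-64469477, mm10, plus strand: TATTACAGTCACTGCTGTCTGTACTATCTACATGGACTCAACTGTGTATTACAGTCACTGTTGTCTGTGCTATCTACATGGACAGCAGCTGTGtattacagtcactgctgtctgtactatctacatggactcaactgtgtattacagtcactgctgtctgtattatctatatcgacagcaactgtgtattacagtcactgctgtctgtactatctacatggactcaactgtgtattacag

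The fold of this region was 2.60 and 3.07 in the unstimulated and 4.03 and 2.996 in the stimulated lists, and that of its neighbour was 2.99 and 2.65 against 2.75 and 2.63. A simple repeat of purines is shown from 1 of the 2 regions above the limit, near Slc2a10, a glucose transporter gene, which was the second best ranked of those without a stimulated peak. Capitals mark the first 4 bases, which are the unit at the start of the window. Further on the unit is mostly AAAG. In the window 87.1% of the bases equalled the base 4 places on.

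Region near Slc2a10, chr2:165541700-165541819, mm10, plus strand: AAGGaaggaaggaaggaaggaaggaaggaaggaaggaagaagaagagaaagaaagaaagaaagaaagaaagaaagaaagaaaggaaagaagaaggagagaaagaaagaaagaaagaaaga

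This region had a fold of 2.48 in unstimulated 1 and 2.44 in unstimulated 2.

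Of the 309 regions, 143 (46.3%, 95% Wilson interval 40.8% to 51.8%) also held a peak in at least 1 stimulated list. Of the regions with a peak in exactly 1 unstimulated list, 3.35% did so. A peak in both stimulated lists was found in 74 (23.9%) against 0.177% of the regions with 1 unstimulated list. These 74 were 16.3% of the 453 regions that held a peak in both stimulated lists. The 69 regions with 1 stimulated list were divided into 45 with a peak in stimulated 1 and 24 with a peak in stimulated 2, although the list of stimulated 2 was the longer one. Wide regions meet other peaks more often. Among regions under 500 bp, 7.41% of 27 reproducible regions and 0.665% of the regions with 1 unstimulated list had a stimulated peak. Between 500 and 1000 bp these shares were 24.1% of 83 and 3.92%, between 1000 and 2000 bp 40.4% of 99 and 18.2%, and from 2000 bp upwards 81.0% of 100 and 60.8%. The share was the higher one in each of the 4 width classes. The width is that of the merged region, however, and takes in the stimulated peaks that are counted. In 7 of the 309 regions the unstimulated peaks were joined only through a stimulated peak. These classes therefore cannot separate width from the presence of a stimulated peak.

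The regions were wide for this series. Their median width was 1338 bp, against 427 bp for all 91019 regions, 419 bp for those with 1 unstimulated list and 962 bp for the 306 regions held by both stimulated lists and neither unstimulated one. Regions with more lists were wider, with a median of 966.5 bp without a stimulated peak, 1754 bp with 1 and 3161 bp with both. A merged region that takes in peaks of more lists can only be wider, so the rule contributes to this order. The length that the peaks of a single list covered in each region is given as well. For unstimulated 1 its median was 614.5 bp in the regions without a stimulated peak, 971 bp in those with 1 and 1450 bp in those with both, and for unstimulated 2 it was 572.5, 769 and 1471 bp. The order was the same in both lists. This length is not free of the rule either. A longer unstimulated peak meets a stimulated one more often, and a stimulated peak can join several unstimulated ones in a region. Over 2000 bp were 100 of the 309 regions (32.4%), 52 of them in both stimulated lists, against 0.528% of all regions.

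**Figure D1:**
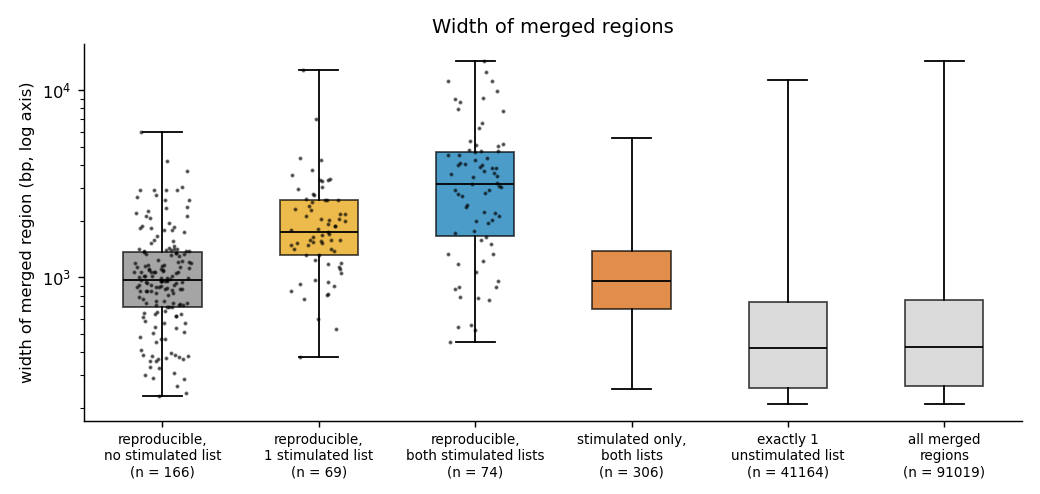
Width of merged regions in bp (log axis) for the 3 classes of reproducible regions and for comparison sets. Boxes give the quartiles, the line the median, whiskers the lowest and highest value, and points the single reproducible regions. The medians are 966.5, 1754 and 3161 bp for regions with 0, 1 and 2 stimulated lists, and 427 bp for all regions.

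Fold enrichment did not set most of these regions apart within their own list. The median fold of their peaks was 2.26 in unstimulated 1 and 2.11 in unstimulated 2, and that of all peaks was 2.25 and 2.09. In the stimulated lists the medians were 2.18 and 2.15 for the regions and 2.27 and 2.09 for all peaks. The −log10 p, which also depends on the background, reached 3 in 34.6% and 26.4% of their unstimulated peaks against 12.9% and 2.93% of all peaks. In the stimulated lists it did so in 47.2% and 41.8% against 17.7% and 3.22%. By class, the median fold was 2.23 and 2.08 in the unstimulated lists for regions without a stimulated peak, 2.26 and 2.07 for those with 1 and 2.44 and 2.40 for those with both. Both folds lay between 1.8 and 3 in 272 regions. Only 3 regions were above 3 in both unstimulated lists. At a −log10 q of at least 1.3, unstimulated 1 had 28 peaks, 22 of them in these regions, and unstimulated 2 had 20, of which 11 were. The stimulated lists had 14 and 29 such peaks, with 6 and 9 in these regions.

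**Figure D2:**
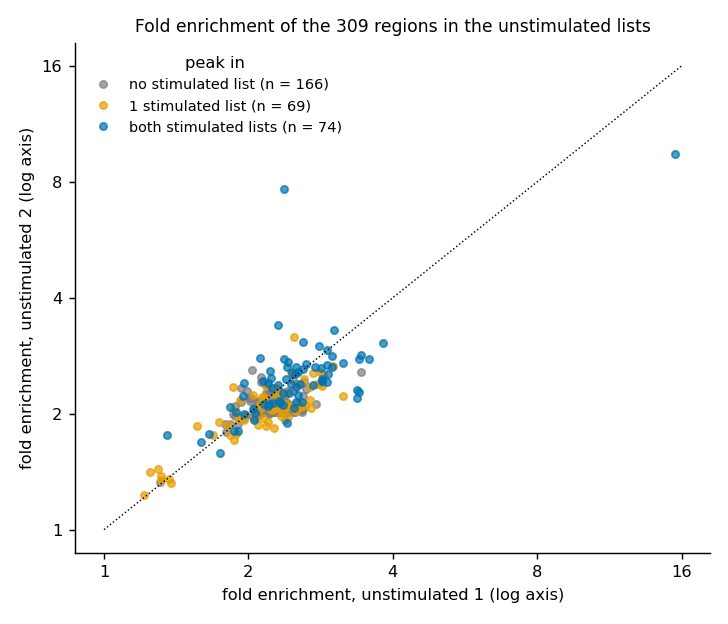
Fold enrichment of the 309 regions in unstimulated 1 (x) and unstimulated 2 (y), both on log axes, coloured by the number of stimulated lists that also held a peak. Each point is the highest peak of the list in 1 region, and the dotted line marks equal values. Most points lie between 1.8 and 3 on both axes, and the point at 15.5 and 9.44 is the region of mitochondrial sequence.

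Copied sequence was common. A region was counted as copied when at least 50% of its bases aligned elsewhere in the genome with at least 90% identity. This held for 135 of the 298 regions whose sequence could be read (45.3%, 39.7% to 51.0%), against 3.02% of all regions, 3.76% of those with 1 unstimulated list and 6.21% of the 306 held by the stimulated pair alone. The share was 27.2% without a stimulated peak, 61.9% with 1 and 71.2% with both. It was above that of single-list regions in every width class, with 23.1% against 3.42% under 500 bp and 72.9% against 21.9% from 2000 bp upwards. At 98% identity or more the share was 9.06%, against 0.604% of all regions. For 113 of the 135, a copy lay within 1000 kb. Copied regions had a stimulated peak in 67.4% and another reproducible region within 100 kb in 72.6%. Among the 163 with sequence that were not copied these shares were 27.6% and 17.2%. The copied regions were also wider, with a median of 2017 bp against 1055 bp, and the part of width in these shares was not tested. The authors removed reads that map to several places before they called peaks, and how far the copies bear on the calls was not tested.

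**Figure D3:**
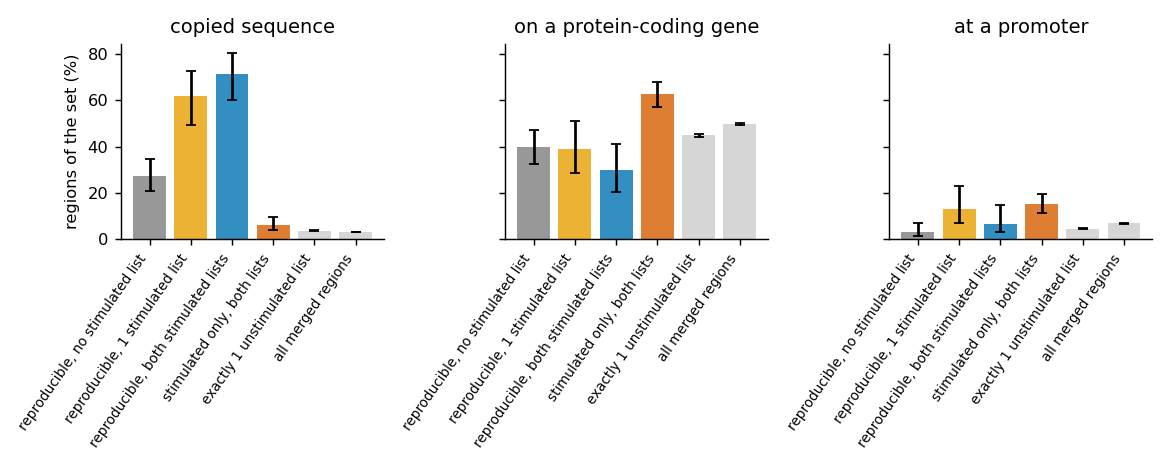
Share of regions (%) with copied sequence, on a protein-coding gene and at a promoter, for the 3 classes of reproducible regions and for comparison sets. Bars are shares and error bars 95% Wilson intervals, which cover counting error only and take the regions as independent. Copied sequence is at 27.2%, 61.9% and 71.2% in the 3 classes and at 3.02% in all regions.

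The regions lay close together. Another reproducible region was found within 100 kb of 146 of them (47.2%), against 7.52% in the set of similar size held by the stimulated pair alone, and within 10 kb of 111. There were 15 clusters of at least 3 regions, which took up 110 regions in all. Chromosome 5 held 69 regions (22.3%) and 6.29% of all merged regions. Chromosome 4 held 38 and the X chromosome 12, and 11 lay on unplaced scaffolds, which held 72 of all merged regions. Chromosome 1, which has the most merged regions, held 8.

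**Figure D4:**
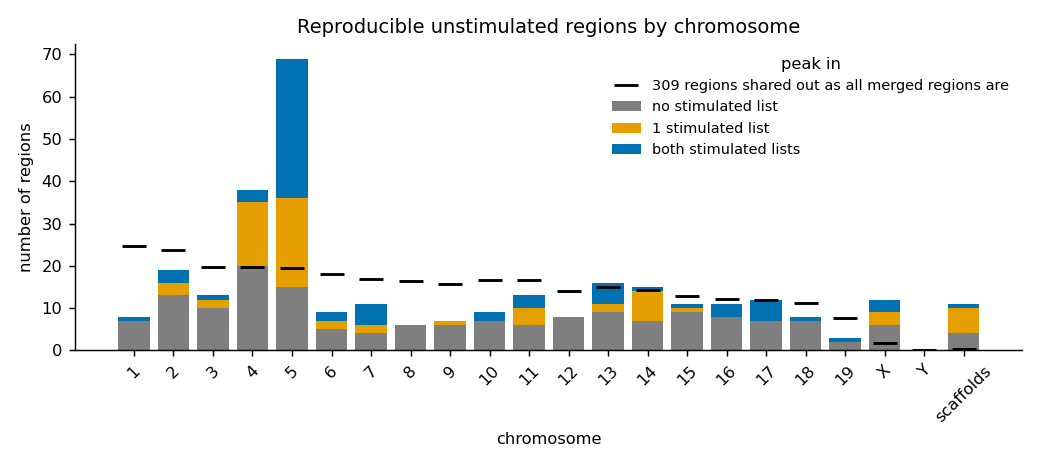
Number of reproducible unstimulated regions per chromosome, stacked by the number of stimulated lists that also held a peak. Black dashes show the 309 regions shared out in proportion to all merged regions. Chromosome 5 has 69 regions, 33 of them with a peak in both stimulated lists, and chromosome 4 has 38.

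The 2 largest clusters lay next to each other on chromosome 5. The larger, chr5:15457771-15705945, held 35 regions in 248 kb, of which 31 were copied, 17 were also held by the stimulated pair and 4 by neither stimulated sample. Its genes are Gm21149, Gm21190, Gm21083, Speer4d and 4930572O03Rik, with the antisense transcripts Gm21847, over 21 regions, and Gm30613, over 11. Peaks covered 43.0% and 24.5% of its length in the unstimulated and 22.8% and 17.2% in the stimulated lists. The cluster held 52 peaks in each unstimulated list and 47 and 29 in the stimulated ones, or 60.4, 15.8, 43.1 and 7.08 times the peaks per Mb that the autosomes had in the same list. The smaller, chr5:14903353-15062544, held 20 regions in 159 kb, 19 of them copied and 15 with a peak in both stimulated lists, around Gm9758, Speer4e, Gm10354 and Gm17019. It had 27, 25, 26 and 22 peaks, with ratios of 48.9, 11.8, 37.1 and 8.37. In both clusters the densities were above the autosomes in all 4 lists, and the ratio was higher in replicate 1 than in replicate 2 of each condition. The lists of replicate 1 were the shorter ones, and the part of this in the ratios was not tested. Every cluster, here and below, was drawn around regions with a peak in both unstimulated lists. The rule thus raises the number, covered length and density of the unstimulated peaks, so the conditions cannot be compared by them.

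Regions of these clusters had high ranks in the classes with a stimulated peak, after the mitochondrial sequence where both stimulated lists had one. On chromosome 5 the region at 15482786 to 15486805 near Gm21149 had a fold of 3.01 and 3.30 in the unstimulated and 2.45 and 3.50 in the stimulated lists. The region over the exons of Gm21083 had 3.57 and 2.78 against 2.66 and 2.53. The widest of all regions, 14305 bp on Gm21149, had 3.14 and 2.71 against 2.92 and 2.41, and 89.6% of its bases were copied. Among those with 1 stimulated list, the region at the promoter of Gm10354 had 2.82 and 2.57 in the unstimulated lists and 2.42 in stimulated 2, with no peak in stimulated 1. The conditions overlapped at both Gm21149 regions, and at Gm21083 both unstimulated values were above both stimulated ones.

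The next clusters were smaller. On chromosome 13, 7 regions, all copied, lay around Prl2c3, a gene of the prolactin family that arose by duplication in rodents. The cluster had 23 and 25 peaks in the unstimulated and 11 and 4 in the stimulated lists, and its density ratio was 37.0 and 10.5 against 14.0 and 1.35. In stimulated 2 its density was thus near that of the autosomes. A cluster of 5 regions on a scaffold had no peak at all in stimulated 2, and its ratios were 58.6, 20.4 and 53.9 in the other lists. On chromosome 4, 7 regions lay at Zfp992 and Zfp981, 5 at Zfp982, Gm16503 and Zfp985, and 3 at Zfp984. The Zfp genes encode zinc finger proteins. Ratios at Zfp992 and Zfp981 were 29.7, 10.9, 23.4 and 3.12, and at Zfp982 to Zfp985 35.0, 7.22, 11.6 and 5.03. On chromosome 7 a cluster of 4 regions near Gvin1, a large interferon-induced GTPase gene, had 8, 10, 10 and 9 peaks that covered 38.1% to 40.0% of its 39.3 kb in every list. A cluster of 4 on the X chromosome, nearest to Spin2f, had 23 peaks in unstimulated 1 and 4, 1 and 1 in the others. Its top region, with 14 copies elsewhere, led the class without a stimulated peak, with folds of 3.44 and 2.57. Unstimulated 1 had the most peaks on the whole X chromosome too, and the part of this in the cluster was not tested.

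**Figure D5:**
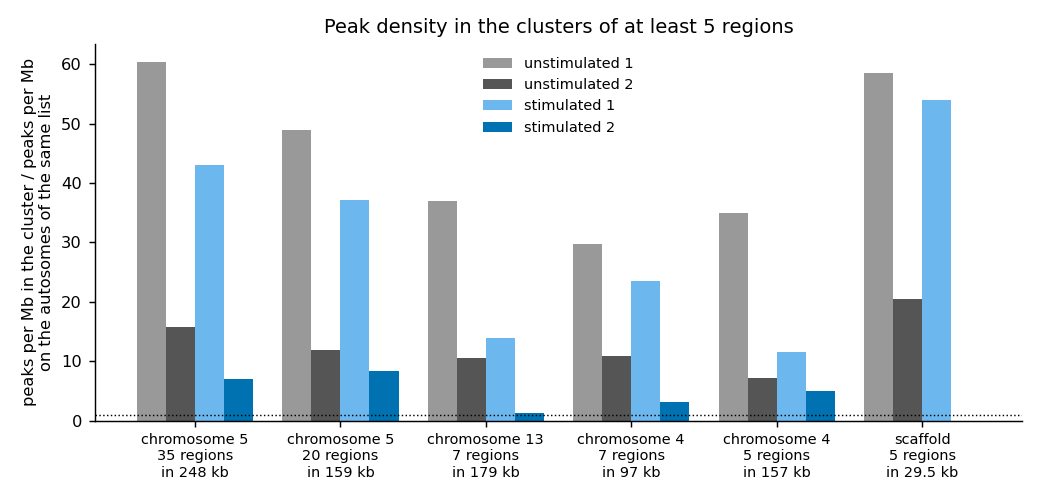
Peaks per Mb in the clusters of at least 5 reproducible regions, divided by the peaks per Mb of the autosomes in the same list (dotted line: 1). Bars are the 4 lists, without error bars since each is 1 sample. Each region of a cluster holds a peak of both unstimulated lists by the rule, which raises the unstimulated bars. The ratio is 60.4 in unstimulated 1 and 7.08 in stimulated 2 for the larger cluster on chromosome 5, and 1.35 in stimulated 2 for the cluster on chromosome 13, and the scaffold has no peak in stimulated 2.

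Among the other clusters were those at Tcp10c on chromosome 17, at Sfi1 and Drg1 on chromosome 11, and in the gene Lrmda on chromosome 14. Lrmda, a gene linked to pigmentation, held 5 regions in all, and none of the 3 in its cluster was copied. The widest of them, 7019 bp, had a fold of 2.70 and 2.07 in the unstimulated lists, no peak in stimulated 1 and 2.32 in stimulated 2. At Sfi1, whose product belongs to the centrosome, and Drg1, a GTPase gene, the peaks were broad and low. A region of 3368 bp in Drg1 had folds of 1.38, 1.32 and 1.31 in both unstimulated lists and stimulated 1, and no peak in stimulated 2. Both folds were below 1.5 in 8 regions, of which 5 were on a single scaffold and 2 at Drg1.

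Some regions had a higher fold in replicate 2 than in replicate 1 of both conditions, and 2 of them held pentamer repeats. The order was not particular to these repeats, since the Mir133a-2 and Plin4 regions described below had it too. On chromosome 17, far from any protein-coding gene, a region of 1074 bp had a fold of 2.37 in unstimulated 1, 7.67 in unstimulated 2, 4.02 in stimulated 1 and 15.9 in stimulated 2, the last being the highest of its list. Part of it is shown for its repeat, with runs of at least 3 units of CATTC in capitals.

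Region 367733 bp from Arid1b, chr17:4626129-4626288, mm10, plus strand: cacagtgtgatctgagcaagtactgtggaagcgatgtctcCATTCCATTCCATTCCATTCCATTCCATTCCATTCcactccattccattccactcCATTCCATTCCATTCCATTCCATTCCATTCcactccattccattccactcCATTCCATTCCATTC

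A region of 773 bp in an intron of Ano2, which encodes a chloride channel, had a fold of 2.31, 3.40, 2.63 and 8.10 in the same order, and also held such runs. In each of these 2 regions the values of replicate 2 exceeded those of replicate 1 in both conditions. Within each replicate number the stimulated value was the higher one, and across the 4 samples the conditions overlapped. Whether pools with the same number came from the same mice is not given in the sources used here. A region near Malt1 had 2.41, 2.64, 3.42 and 10.7 in the same order and was not among those with such runs. The search, which took in both strands and was made after these values had been seen, found a run of 3 units or more in 2 of 298 regions (0.671%) and in 11 of all 90947 regions with sequence (0.0121%). Of regions between 500 and 1500 bp, 1.40% of the 143 reproducible ones and 0.0285% of all held one. Of the 10 highest peaks of each list, 0, 6, 2 and 3 lay in those 11 regions.

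By annotation, 6.15% of the 309 regions lay at a promoter, that is within 1000 bp of a start of a protein-coding transcript, 10.7% on an exon, 20.4% in an intron and 62.8% outside protein-coding genes. For all regions these shares were 6.88%, 7.12%, 36.6% and 49.4%. Protein-coding gene bodies held 37.2% (32.0% to 42.7%) of the regions, 49.9% of all and 62.7% of the 306 held by the stimulated pair alone. The regions lay on 103 protein-coding genes, 88 of which had a single one. Antisense transcripts were overlapped by 37 regions (12.0%, against 2.30% of all) and lincRNAs by 25 (8.09%, against 4.58%). Of the 37, 21 lay on Gm21847 alone. Copied regions were on a protein-coding gene in 26.7% and those that were not copied in 48.5%.

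The regions not counted as copied included muscle genes. Of the 21 with a peak in all 4 lists that were below the limit for a copied region, 11 lay on a protein-coding gene, and the 5 widest were at Neat1, Myh4, Tmem267, Mir133a-2 and Plin4. Neat1, a long noncoding RNA that builds nuclear paraspeckles, held a region of 11161 bp (chr19:5823303-5834463) over 47.0% of the gene, including its 3′ end. Its fold was 2.22 and 2.58 in the unstimulated and 2.48 and 2.44 in the stimulated lists, so that the conditions overlapped. The peaks of unstimulated 1 covered 556 bp of it, and those of the other lists 10272, 8361 and 3801 bp.

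Myh4 encodes the myosin heavy chain of the fastest muscle fibres, those of type IIB, which are plentiful in the mouse gastrocnemius. Its region of 9942 bp (chr11:67249732-67259673) lay inside the gene and covered 44.3% of it. The fold was 2.54 and 2.56 in the unstimulated and 2.43 and 2.38 in the stimulated lists, and both unstimulated values were the higher ones. Peaks covered 313 and 8639 bp of it in the unstimulated and 5670 and 8870 bp in the stimulated lists. A further region of 1487 bp began 76 bp beyond the end of the gene, with 2.40 and 2.07 in the unstimulated lists, none in stimulated 1 and 2.49 in stimulated 2. Of the Myh4 region, 24.0% aligned elsewhere, below the limit for a copied region. Alignments of at least 500 bp were found to its neighbours Myh1, over 577 positions with 96.0% identity, and Myh2, over 575 with 94.3%. These are the genes of the other fast myosins. Where the rest of the 24.0% aligned is not given here. The start of the alignment with Myh1 is shown because it holds exon and intron of both genes. All 10 differences, in capitals, lie in the 93 bases of intron and 0 in the 107 bases of exon.

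Myh4 region, chr11:67252970-67253169, mm10, plus strand: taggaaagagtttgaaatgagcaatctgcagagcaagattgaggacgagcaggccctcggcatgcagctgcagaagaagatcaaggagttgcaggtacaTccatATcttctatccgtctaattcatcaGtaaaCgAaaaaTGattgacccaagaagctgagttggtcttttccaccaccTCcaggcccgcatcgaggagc
Copy in Myh1, chr11:67214734-67214933, mm10, plus strand: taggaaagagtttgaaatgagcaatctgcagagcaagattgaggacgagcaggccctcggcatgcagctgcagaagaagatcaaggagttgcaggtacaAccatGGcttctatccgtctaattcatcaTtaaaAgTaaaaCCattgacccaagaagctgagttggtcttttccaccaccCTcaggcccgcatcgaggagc

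Mir133a-2, the gene of a microRNA of heart and skeletal muscle, lay within a region of 8667 bp (chr2:180394215-180402881). The fold was 2.15 and 2.43 in the unstimulated and 2.61 and 2.65 in the stimulated lists. Here both stimulated values were above both unstimulated ones, and the order was the opposite at Myh4, Ugt3a1 and Gm21083, among others. How often regions separated in either direction is not given here, and no difference was tested. The peaks of unstimulated 1 covered 773 bp and those of the other lists 6656, 6435 and 5017 bp. At the facing 3′ ends of Plin4, which coats lipid droplets, and Hdgfl2, a chromatin protein gene, a region of 7918 bp (chr17:56098181-56106098) covered 59.8% of Plin4 and 11.6% of Hdgfl2. Its fold was 2.51 and 2.64 against 2.47 and 2.83, with overlapping conditions. Tmem267 held 4 regions, and not all of them were uncopied. The widest, of 9062 bp, had 1.83 and 2.08 against 1.94 and 1.93, and 9.68% of it aligned to a copy, with 98.9% identity at best. The regions of 762 and 4326 bp on this gene were both counted as copied, the shorter one over 91.7% of its length. In the remaining one, of 3147 bp, 68.1% of the bases equalled the base 31 places on. Ugt3a1, a glycosyltransferase gene, held a region of 2422 bp with 2.47 and 2.56 against 2.40 and 2.18, and 43.5% of it aligned to a copy.

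Genes of calcium handling were few. Atp2a1 encodes the pump that returns calcium to the sarcoplasmic reticulum of fast fibres. A region of 2636 bp reached its 3′ end from within Rabep2 and had a fold of 2.18 and 2.36 in the unstimulated lists and 2.47 in stimulated 1, with no peak in stimulated 2. Trdn encodes triadin, which anchors the calcium release complex. An intronic region of 695 bp there had 2.21 and 2.04 in the unstimulated lists and no stimulated peak. These were 2 of 30 genes on a list of metabolism and calcium handling, on which lay 0.647% of the 309 regions and 0.140% of all. Of 50 sarcomere genes, 2 held a region, which gives 4 regions (1.29%) against 0.276% of all. Myh4 held 1 of the 4, and its values do not stand for the list. None of 36 immediate early genes, the first genes to respond to a stimulus, held a reproducible region of resting muscle, but these genes took only 0.0527% of all regions, so that a count of 0 is near the background. The same holds for the other lists without a region. Their shares of all regions were 0.213% for 20 genes of the dystrophin complex and adhesion, 0.0187% for 25 genes of cell division and 0.0538% for 18 H3S10 kinases and readers. They were 0.0450% for 91 ribosomal protein genes, 0.0253% for 20 markers of other cell types, 0.0110% for 67 histone genes and 0.207% for 1134 olfactory receptors. Of 30 neuronal adhesion genes only Magi2 had one, intronic, with folds of 2.40 and 2.10 and no stimulated peak, and its list took 0.324% against 1.17% of all regions. Of 332 vomeronasal receptors, Vmn2r114 had one with a peak in all 4 lists, between 2.24 and 2.34, and its list took 0.324% against 0.178% of all regions. Zinc finger genes named Zfp were the list with most: 6 of 397 held 11 regions (3.56%, against 0.726% of all). These were Zfp949, Zfp981, Zfp982, Zfp984, Zfp985 and Zfp992, and all but Zfp949 lie in the clusters on chromosome 4. Zfp949 had a fold of 2.49 and 3.17 in the unstimulated lists, no peak in stimulated 1 and 3.54 in stimulated 2.

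The 166 regions without a stimulated peak were the narrowest and least copied. Of the 162 with sequence 44 were copied, and 47 lay in an intron and 100 outside protein-coding genes. Among those with the best ranks were an intronic region of 3682 bp in Neil3, a DNA repair glycosylase gene, with folds of 2.64 and 2.32, and one of 1238 bp in Wwox, a large gene at a fragile site, with 2.32 and 2.29. The region on the exons of Sult2a1, a sulfotransferase of steroid metabolism, had 2.34 and 2.28 and was copied over 98.2% of its length. All 3 had a higher fold in unstimulated 1 than in unstimulated 2, as had 221 of the 309 regions. With 2 samples per condition, and a class that is defined by the missing stimulated peaks, their absence after contractions is a description of the rule and was not tested.

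The edge of the rule was as follows. In 302 regions the unstimulated peaks overlapped each other, and in 7 they were joined only through a stimulated peak. The overlap was 1 bp in the closest case and 300 bp in the median, and 17 regions had less than 50 bp. Just outside, 28 peaks of unstimulated 1 lay within 100 bp of a peak of unstimulated 2 without touching it, the nearest at a distance of 0 bp.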

How the data were processed

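The authors performed ChIP-seq on H3S10ph in gastrocnemius muscle, mapped the reads to mm10, removed reads with several positions using bamtools 2.4.0, down-sampled replicates to equal depth and called broad peaks per sample with MACS2 2.1.1 against input DNA. Their processing notes also list BWA 7.12. The deposited lists give, per peak, a fold enrichment (a ratio over background), the −log10 of p and of q, and a score, which is the −log10 q rescaled and was not used.

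Peaks were merged in Python 3.11.15 (pandas 2.3.3), and the merging was tested on simulated data against bedtools 2.31.1. Genes were those of GENCODE release M21. Sequences came from RefSeq GRCm38.p6, whose coordinates are those of mm10; the 11 regions on scaffolds were not read. Copies were sought with BLAST+ 2.17.0 (megablast, seeds outside masked repeats, identity of at least 90%), so a wholly masked region cannot be counted as copied, and 16 uncopied regions were masked over at least 90% of their bases. Of 50 simulated regions with a planted copy at 93% identity, 50 were found. Figures were drawn with matplotlib 3.10.9. No test was made, since each condition has 2 samples and the regions were chosen by the peaks. Wilson intervals are at 95%. They take the regions as independent, which related copies and clustered regions are not, so they can be too narrow.

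Named are the genes on, or the protein-coding gene nearest to, the 10 regions per class with the best worse rank by fold in the unstimulated lists, genes of the lists that held a region, and genes of clusters of at least 3 regions within 100 kb. The widest uncopied regions, the pentamer regions and those of low fold were named after their values were seen, as were Tmem267 and Ugt3a1. The regions, gene lists and alternatives were chosen with earlier results of these data known. One listed gene is not reported here. Alternatives were thresholds on −log10 p of 2.5 and 3, lists of equal length, merging within 1000 bp, overlap between the unstimulated peaks themselves, autosomes only, each stimulated sample left out, and other limits for promoter, gene, distance and copy.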

Additional observations from a re-analysis of the deposited data

How the results depend on the processing

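No paired analysis was possible because no result comes from a test, and whether pools with the same number share mice is not given in the sources used here. Of 93 values under alternatives, 37 stayed within the limit for their kind, and 56 did not. The limit was the main value's interval for shares and 1.5 times the main count for counts. For the median width it was 13.8 bp, the standard deviation of the median peak widths of the 2 unstimulated lists in the regions. No alternative of the median width stayed within this narrow limit. At a −log10 p of at least 2.5 there were 111 regions (34 without a stimulated peak, 31 with 1 stimulated list, 46 with both), with a median width of 2002 bp. Of them 69.4% had a stimulated peak, 31.5% lay on a protein-coding gene, 62.2% were within 100 kb of another and 71.7% were copied. At a −log10 p of at least 3 there were 58 regions (17, 14 and 27), with 2897.5 bp, 70.7%, 27.6%, 75.9% and 77.2% in the same order. With the 9094 highest peaks of each list there were 115 regions (62, 20 and 33), with a median of 1367 bp, 53.9% near another and 56.6% copied. Merging within 1000 bp gave 566 regions, 368 without a stimulated peak and 109 with 1 list, a median of 1558.5 bp, and shares of 35.0% with a stimulated peak, 32.2% near another and 28.8% copied. Requiring the unstimulated peaks to share 50% of both gave 95 regions (45, 15 and 35), with 1059 bp, 52.6% with a stimulated peak and 30.5% near another, and requiring them to touch gave a median of 1319.5 bp. On autosomes only the median was 1308.5 bp.

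Without 1 stimulated sample, 31.7% to 38.5% had a stimulated peak, and 98 to 119 regions had a peak in the remaining stimulated list. A promoter of 5000 bp took 17.5% of the regions, and genes extended by 5000 bp took 44.0%. Within 10 kb of another were 35.9%, and within 1000 kb 56.0%. Copied were 33.6% at 95% identity, 9.06% at 98%, and 38.6% when 90% of the region had to align. Without the 2 clusters on chromosome 5, an alternative added after the data had been seen, 254 regions were left. Of these 42 were held by the stimulated pair too, and the median width was 1182.5 bp. A stimulated peak was found in 36.6%, another region within 100 kb of 35.8%, and 35.0% were copied. The copied share of the regions was above 3.02%, the share of all regions under the main settings, under every alternative. For all regions it was 1.77% at 95% identity, 0.604% at 98%, and 2.37% when 90% of the region had to align. It was not computed again for the other alternatives. Limits are the 2 pools per condition, lists of unequal length, and the unknown depth. Leaving out an unstimulated sample leaves no region by the rule.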
